A study of Mus musculus with 2 samples.

Results

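The cells described are the non-cycling fibro-adipogenic progenitors (FAPs) of quadriceps muscle 3 days after barium chloride (BaCl2) injury. They are 431 of the 4627 day 3 cells that passed the quality filters, or 9.31% (exact 95% interval 8.49 to 10.2), and 431 of the 11362 such cells in the series. The members were chosen by their measured counts of unique molecular identifiers (UMIs), each of which stands for 1 captured RNA molecule. A member had at least 1 UMI of Pdgfra, at least 0.3% of its UMIs from Col1a1, Col1a2, Col3a1 and Dcn together, under 0.5% from Lyz2, fewer than 2 UMIs of the myogenic genes Pax7, Myf5, Myod1 and Myog, and fewer than 2 of the mitosis genes Top2a and Mki67. Levels of these genes describe the choice and were not used as results.

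The series analysed here holds 2 droplet libraries of mononuclear cells. Both came from male wild-type (WT) C57BL/6J mice aged 14 weeks whose quadriceps had been injured with BaCl2, a salt that destroys myofibers, and were taken at day 1 and day 3. Each library pooled several mice, the cells had been frozen, and myofibers are too large to enter. With 1 library per day there is no replicate, so no test could be made: intervals cover counting error only, and the day, the mice and the library preparation cannot be told apart. The same rule found 363 non-cycling FAPs at day 1, 5.39% (4.86 to 5.96) of 6735 cells, and 268 day 3 FAPs with 2 or more UMIs of Top2a and Mki67, called cycling here.

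FAPs are the resident mesenchymal cells of skeletal muscle, marked by the platelet-derived growth factor receptor Pdgfra. They lie between the fibers, enter the cell cycle after injury, secrete matrix and signals that act on muscle stem cells and leukocytes, and are later cleared. In chronic disease they are a known source of fibrous and fatty tissue.

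The members had a median of 22355 UMIs (1400 to 71230) and 4742 genes per cell, against 26910 UMIs (1136 to 101088) and 4851 genes in day 1 FAPs and 33891 UMIs in cycling FAPs. Together they held 10083287 UMIs, close to the 10069822 of day 1 FAPs and the 9868383 of cycling FAPs. No cell barcode was shared by both libraries. The limit on mitochondrial UMIs removed 85 of 516 day 3 cells that met the rule and 11 of 374 at day 1. Near the limits of the rule, the lowest share of collagen and Dcn UMIs in a member was 0.308%, and 7 cells failed only there, the nearest at 0.247%. The highest Lyz2 share in a member was 0.4998%, with 20 cells failing only there, the nearest at 0.520%. Of the members, 338 had no UMI of Top2a and Mki67 and 93 had 1, while 41 cycling FAPs had exactly 2.

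Markers of endothelial, muscle and lymphoid cells were low in the members. Summed endothelial markers came to 113 UMIs per 1000000 UMIs (CPM) against 3383 in endothelial cells of the same library. Satellite cell and myoblast markers came to 322 against 2681 in myogenic cells, and lymphocyte markers to 4.66. The myogenic cells were chosen by 2 or more UMIs of the myogenic genes that the rule limits in members. The endothelial cells were chosen by 2 or more UMIs of Pecam1 and Cdh5 together. Both groups also had no UMI of Pdgfra and under 0.5% of their UMIs from Lyz2. Both contrasts thus partly describe the choice of cells. Pericyte and smooth muscle markers came to 55.7, glial markers to 28.1, myofiber markers to 17 and tenocyte markers to 390, against 657 at day 1. Macrophage RNA was more abundant. It was set against Lyz2-rich cells, chosen by at least 0.5% of UMIs from Lyz2 and no UMI of Pdgfra. Without Lyz2, which the rule used, 14 macrophage markers, none at 0, summed to 1064 CPM in members, 927 in day 1 FAPs, 2205 in cycling FAPs and 18023 in Lyz2-rich cells. This RNA sat in few cells: 64 of the 431 members (14.8%, 11.6 to 18.6) took at least 0.1% of their UMIs from these 14 markers, as did 45 of 363 day 1 FAPs (12.4%) and 99 of 268 cycling FAPs (36.9%). In the remaining 367 members these markers summed to 85.9 CPM, and in the remaining day 1 FAPs to 78.1. Values without these cells are given below where they matter.

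Of the 6 marker genes given for these cells, 3 took no part in the rule. Postn, which encodes the matrix protein periostin, stood at 1800 CPM (1774 to 1826) in members, 132 (125 to 139) in day 1 FAPs and 12.4 in Lyz2-rich cells. Sfrp2, a secreted Wnt modulator, stood at 2203 CPM (2174 to 2232) against 27.7 (24.6 to 31.2) at day 1. With every cell thinned to 3000 UMIs, Sfrp2 was seen in 81.6% of members, 5.52% of day 1 FAPs and 2.11% of Lyz2-rich cells, which should lack it. Lyz2-rich cells were chosen without Pdgfra UMIs, so their low share partly describes that choice. Unthinned, the shares in the same groups were 92.6%, 14.3% and 8.20%, at median depths of 22355, 26910 and 13456 UMIs. Aspn, which encodes the small proteoglycan asporin, stood at 856 CPM (838 to 874) against 19.8 (17.1 to 22.7). Their log2 ratios of day 3 over day 1 were 3.77 for Postn, 6.31 for Sfrp2 and 5.43 for Aspn. These 3 markers were given for the day 3 cells with earlier results of these data known. Their difference between the days may therefore reflect that choice and is a description only.

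**Figure D1:**
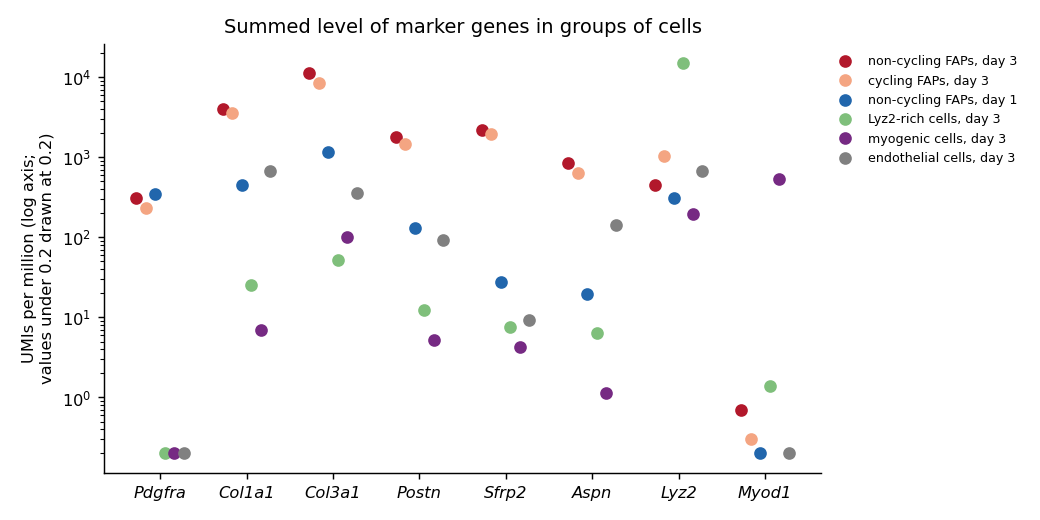
Summed level of 8 marker genes, in CPM on a log axis, with 1 point for each of 6 groups of cells. Sfrp2 stands at 2203 in day 3 non-cycling FAPs (dark red) and at 27.7 in those of day 1 (blue), while Pdgfra, which the rule used, stands at 311 and 352. The rule also used Col1a1, Col3a1, Lyz2 and Myod1, so the levels of these genes and of Pdgfra describe the choice of cells. The Lyz2-rich, myogenic and endothelial cells were chosen to have no Pdgfra UMI.

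To ask how non-cycling FAPs differed between the days, their summed UMIs were compared gene by gene. Many genes of the matrix, Wnt and interferon lists were at least 2-fold higher at day 3, and chemokines such as Cxcl5 and Ccl2 were lower. Among 7997 genes with at least 200 UMIs over both groups, without the genes of the rule, 1204 (15.1%) were at least 2-fold higher at day 3 and 759 (9.49%) at least 2-fold lower. The median log2 ratio was 0.10. The shares of 15.1% and 9.49% are the background for the list counts below. Without the cells carrying macrophage UMIs, 1140 were higher and 784 lower of 7256. With at least 1% collagen and Dcn UMIs per cell, which kept 413 members and 108 day 1 FAPs, 415 genes were lower, and the log2 ratios of Ccl2 (-0.50), Lox (0.75), Fos (0.54), Inhba (-0.76), Plin2 (-0.36), Ccnd1 (-0.51) and Cdkn1c (0.86) were under 2-fold. With that limit 21 of 55 matrix genes were higher and 6 lower, 9 of 29 collagen processing genes were higher, and 1 of 47 endoplasmic reticulum genes was higher and 3 lower.

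Most collagen genes were higher. All 4 fibrillar collagen genes that were tested and not part of the rule were at least 2-fold higher, with a median log2 ratio of 2.22 against 0.10 over all genes. Col5a1, which helps start fibril assembly, stood at 756 CPM against 74.4 (log2 ratio 3.34, 3.24 to 3.46), and Col5a2 at 1490 against 305 (2.29). Among the other collagens 10 of 12 were higher, with a median of 2.35. Col6a3, of the microfibrils around cells, stood at 1244 CPM against 246, and Col12a1 at 271 against 58.0. The exceptions were Col4a1 and Col4a2, chains of basement membranes, with Col4a1 at 452 CPM in members and 570 at day 1 (log2 ratio -0.34, -0.39 to -0.28). Col4a5, also a type IV chain, was among the higher genes. With at least 1% collagen and Dcn UMIs per cell 3 of 4 fibrillar genes were higher and none lower, with a median of 1.81. Of the other collagens 8 of 12 were then higher and 2 lower, also with a median of 1.81. Col1a1 and Col3a1 were in the rule and are a description only: they stood at 3976 and 11478 CPM in members and at 446 and 1177 at day 1, while Dcn (decorin) stood at 2774 against 5734.

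Enzymes that modify and crosslink collagen were also higher, 16 of 30 by at least 2-fold and none lower, with a median of 1.09. The prolyl hydroxylase subunit P4ha3 stood at 65.4 CPM against 6.36 (log2 ratio 3.35), and the lysyl oxidases Lox and Loxl2, which crosslink fibrils, at 1324 against 505 and at 167 against 40.8. The collagen chaperone Serpinh1 was closer, at 2653 CPM against 1504 (0.82). Of 47 genes of folding and secretion in the endoplasmic reticulum, 9 were higher and 1 lower, with a median of 0.44. The share of higher genes was near the 15.1% over all genes.

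Matrix glycoproteins and proteoglycans followed, with 30 of 57 higher, 2 lower and a median of 1.04. Fn1 (fibronectin) stood at 2472 CPM against 518, Bgn (biglycan) at 3539 against 991, and Fbn1 (fibrillin) at 1366 against 374. The lower genes were Tnxb, a tenascin of loose connective tissue, at 104 CPM against 225, and Ltbp4, which binds latent TGF-beta, at 30.5 against 137. Tnc, another tenascin, stood at 258 CPM against 274 (log2 ratio -0.08), below a 2-fold difference. Lubricin, encoded by Prg4 and not part of that list, stood at 813 CPM against 4350 (-2.42, -2.45 to -2.39).

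Contractile genes showed the same direction: 12 of 28 were higher and none lower, with a median of 0.93. With at least 1% collagen and Dcn UMIs per cell 15 of 28 were higher and 1 lower. The median was then 1.11, against 0.60 for matrix glycoproteins and proteoglycans. Acta2, the smooth muscle actin of myofibroblasts, stood at 161 CPM (153 to 169) against 5.06 (3.77 to 6.66). It was seen in 19.5% of members after thinning, 1.10% of day 1 FAPs and 1.98% of Lyz2-rich cells (unthinned 46.6%, 4.96% and 7.78%). Myl9 stood at 42.9 CPM against 14.6 and Tpm2 at 142 against 53.6. Tagln stood at 41.9 CPM against 9.53, and without cells carrying macrophage UMIs at 44.3 against 2.29.

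Wnt ligands and modulators held the highest median among the secreted signals, 1.57, with 13 of 18 higher and 1 lower. Sfrp1, a secreted Wnt antagonist, stood at 406 CPM against 8.84 (log2 ratio 5.51, 5.22 to 5.84), and the ligand Wnt5a at 36.3 against 9.73 (1.89). The ligand Wnt2 was the lower one, at 4.66 CPM against 20.7.

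In the TGF-beta, activin and BMP family 10 of 27 genes were higher and 3 lower. Tgfb3 stood at 61.0 CPM against 6.26 and Tgfb2 at 67.0 against 24.7, while Tgfb1 was near equal at 53.9 against 47.7. Follistatin-like Fstl1 stood at 1740 CPM against 603. The lower genes were the activin subunit Inhba (31.3 against 65.0), the ligand Bmp2 (11.5 against 26.0) and Fstl3 (6.84 against 19.3). These calls depended on the processing: after thinning the log2 ratios were -0.63, -0.93 and -0.38, Inhba was under 2-fold in 5 further alternatives, and with at least 1% collagen and Dcn UMIs per cell none of 23 genes was lower.

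Among 29 growth factor genes 9 were higher and 4 lower. Igf1, which promotes muscle growth, stood at 302 CPM (292 to 313) against 47.0 (42.8 to 51.4). Hgf, an activator of satellite cells, stood at 21.9 against 2.88. Ptn (pleiotrophin) stood at 81.8 against 3.38, and Angpt1, a ligand of vessel stability, at 50.7 against 2.88. Pgf, a placental growth factor, was lower at 6.05 CPM against 30.9.

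In the cytokine and chemokine list 12 of 29 genes were lower and 5 higher, with a median log2 ratio of -0.61. This balance depended on the processing: 6 of 26 were higher and 5 lower with the ambient profile subtracted (median -0.055), 7 and 8 of 27 with the highest doublet scores left out, and 4 and 5 of 21 with at least 1% collagen and Dcn UMIs per cell. The neutrophil attractant Cxcl5 stood at 314 CPM (303 to 325) in members and 2524 (2493 to 2555) at day 1, a log2 ratio of -3.01, and at 324 against 2691 without cells carrying macrophage UMIs. Cxcl14 stood at 728 CPM against 2340, and the monocyte attractant Ccl2 at 1170 against 2806. Cxcl2 stood at 670 CPM against 2264, and at 418 against 962 without those cells, with 2725 in Lyz2-rich cells. Other members of the list differed by less than 2-fold: Cxcl1 stood at 1607 against 2848, Ccl7 at 1379 against 1791, Csf1 at 340 against 355 and Il6 at 152 against 143. Cxcl12, which retains leukocytes and stem cells in tissues, stood higher at 1164 CPM against 193 (2.59, 2.52 to 2.66), in 76.5% of members after thinning against 39.2% of day 1 FAPs and 0.759% of Lyz2-rich cells (unthinned 97.2%, 80.4% and 3.73%).

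Several of the lowest ratios were nearer to equal without cells carrying macrophage UMIs. Il1b, an inflammatory cytokine, stood at 32.3 CPM against 439, and at 12 against 54.9 without cells carrying macrophage UMIs. The chemokine gene Ppbp stood at 0.397 against 58.3, and at 0.125 against 1.57 without them, and Arg1 (arginase) at 1.69 against 101, and at 0.25 against 2.89. The neutrophil markers as a list summed to 48.0 CPM in members and 574 in day 1 FAPs, and to 13.2 and 280 without those cells, so the ratio between the days did not shrink. The part of neutrophil RNA in these ratios was not tested.

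Other low ratios moved less without those cells. Serpinb2, a serine protease inhibitor, had no UMI in the members and 456 in day 1 FAPs, at least 152-fold lower with 3 counts over the group as the floor. Only 18 of 363 day 1 FAPs had any, and 1 cell held 143 UMIs. The log2 ratio of Serpinb2 was -9.84, and -8.80 without cells carrying macrophage UMIs. Saa1, an acute phase protein, stood at 1.69 CPM against 101, and at 2 against 120 without cells carrying macrophage UMIs. It was seen in 25 day 1 FAPs, and 1 cell held 492 of its 1013 UMIs. Il1rl1, the receptor for interleukin 33, stood at 14.7 CPM against 213, while its ligand Il33 stood at 181 against 214. Hmga1, a chromatin protein, stood at 3.07 CPM against 81.0. The metallothioneins Mt1 and Mt2, which bind metal ions, stood at 2339 against 8330 and at 985 against 4286, and the membrane glycoprotein Pdpn at 192 against 1279.

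In the list of inflammatory genes of stromal cells 7 of 40 were higher and 5 lower, with a median of 0.03. These counts were near the shares over all genes, 15.1% higher and 9.49% lower. Haptoglobin, encoded by Hp, stood at 137 CPM against 12.7, and at 152 against 3.74 without cells carrying macrophage UMIs. Tnfaip6, a hyaluronan-binding protein, stood at 662 CPM against 418 (log2 ratio 0.66). Among proteases and inhibitors 13 of 36 were higher and 4 lower. The membrane metalloproteinase Mmp14 stood at 298 CPM against 81.0. Mmp3, Timp1 and the urokinase receptor Plaur were lower, at 22.3 against 167, 845 against 2172 and 22.4 against 110.

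**Figure D2:**
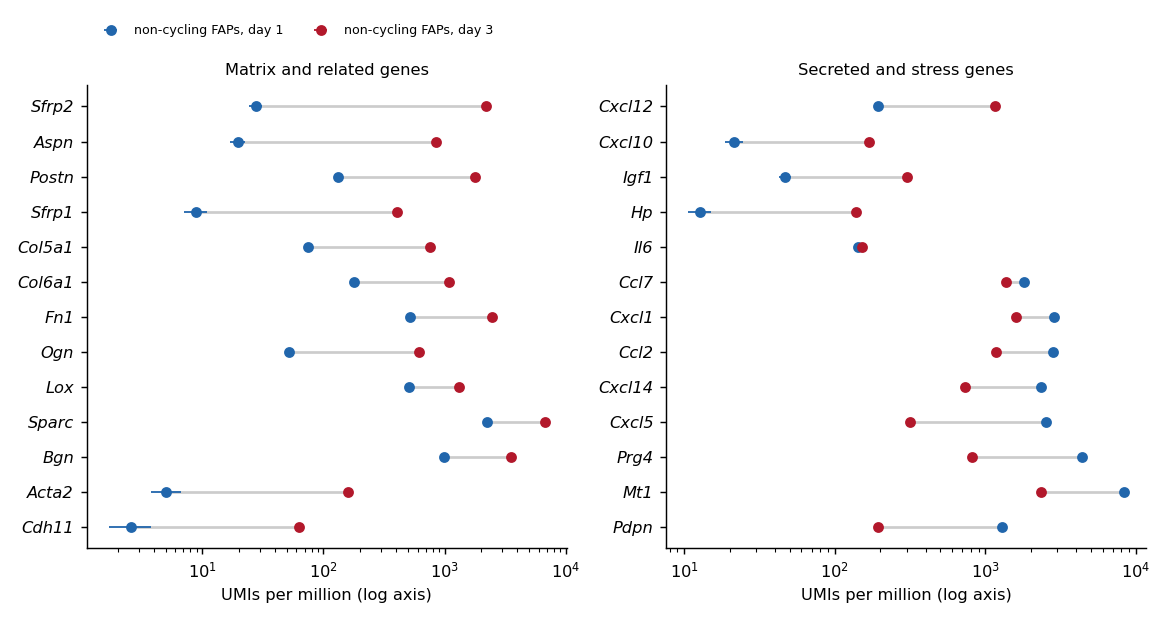
Level of 26 genes in CPM (log axis) in non-cycling FAPs of day 1 (blue) and day 3 (red), with bars for the exact 95% Poisson interval, often smaller than the point. Sfrp2, Aspn and Sfrp1 lie far to the right at day 3 on the left side, and Cxcl5 and Prg4 lie to the left on the right side, with Il6 near equal at 152 and 143.

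Interferon response genes were higher as a list, with 17 of 25 higher, none lower and a median of 1.62, and 13 of 20 and 1.88 without cells carrying macrophage UMIs. With at least 1% collagen and Dcn UMIs per cell 12 of 22 were higher and none lower, with a median of 1.16. Among genes with at least 1000 UMIs 3 of 9 were higher and none lower, with a median of 0.61. Over all genes of the interferon list, UMIs summed to 6883 CPM in members and 4545 at day 1. Promoter sequences of 3 of these genes are shown because they hold the core of the interferon-stimulated response element (GAAA, any 2 bases, GAAA), searched on both strands in the window from 250 bases before to 50 after the start site. The genes shown have the highest ratios among listed genes with a match. Sequences are from RefSeq (GRCm38.p6), 5′ to 3′ on the strand of the gene, and capitals mark the match, written as TTTC, any 2 bases, TTTC where it lies on the opposite strand. Rsad2 lies on the minus strand at chr12:26456528-26456607, Cxcl10 on the minus strand at chr5:92349058-92349137, and Ifit1 on the plus strand at chr19:34640750-34640848.
Rsad2: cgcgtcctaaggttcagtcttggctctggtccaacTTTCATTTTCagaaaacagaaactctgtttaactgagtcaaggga
Cxcl10: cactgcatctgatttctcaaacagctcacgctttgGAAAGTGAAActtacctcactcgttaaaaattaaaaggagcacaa
Ifit1: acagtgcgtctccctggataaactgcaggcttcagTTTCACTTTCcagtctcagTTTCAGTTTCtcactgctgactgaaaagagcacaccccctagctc
The match began 120 bases before the start site in Rsad2, 213 in Cxcl10 and 104 in Ifit1, which holds 2 matches. Of the 24 listed genes with a promoter in the table, 14 (58.3%) held a match, against 1079 of all 27025 genes (3.99%). Among listed genes at least 2-fold higher it was 9 of 13, and among those tested and under 2-fold 4 of 8. A match describes these letters and not a site in use.

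The 3 genes with printed promoters were higher at day 3. Cxcl10, an attractant of T cells, stood at 168 CPM (160 to 177) against 21.5 (18.8 to 24.6). The antiviral gene Ifit1 stood at 64.0 against 10.0, and Rsad2, encoding viperin, at 21.7 against 2.18. Rsad2 was more abundant in Lyz2-rich cells, at 110 CPM, and stood at 9.62 against 0.965 without cells carrying macrophage UMIs. Cxcl9 did not share that pattern: it stood at 60.0 CPM in members against 3.58 at day 1 and 2.01 in Lyz2-rich cells.

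These transcripts were spread unevenly over the members on both days. At day 3, Cxcl9 was seen in 78 of 431 members and Rsad2 in 48, while Ifit1 was seen in 126, Cxcl10 in 197 and Isg15 in 215. The tenth of members with most UMIs of a gene, 44 cells, held 94.4% of Cxcl9 UMIs, 66.6% of Cxcl10 and 69.6% of Isg15. At day 1, where these genes were lower, Cxcl10 was seen in 41 of 363 cells and Isg15 in 70, and the tenth of cells with most held 98.2% and 91.4%.

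Lineage genes were mixed. Of 11 adipogenic genes tested 3 were higher and 1 lower, with a median of 0.05. Lpl (lipoprotein lipase) stood at 471 CPM against 47.3, and at 686 in Lyz2-rich cells, while 466 against 46.1 were left without cells carrying macrophage UMIs. Plin2, which coats lipid droplets, stood at 149 against 304. Of 12 tendon, cartilage and bone genes 8 were higher and 1 lower, the latter Alpl (alkaline phosphatase) at 1.19 CPM against 28.0. The tendon gene Tnmd stood at 15.7 CPM against 7.55, a log2 ratio of 1.05 that was -0.48 with at least 1% collagen and Dcn UMIs per cell.

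Of 32 immediate early and heat shock genes 9 were higher and 4 lower, with Egr1 at 1169 CPM against 192, Fos at 1145 against 551 and Hspa1a at 637 against 587.

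In the list of cell cycle brakes and quiescence genes 8 of 19 were higher and 2 lower. The imprinted RNA H19 stood at 131 CPM (124 to 138) against 2.28 (1.45 to 3.43), the growth arrest gene Gas1 at 437 against 41.7, and the cyclin kinase inhibitor Cdkn1c at 52.1 against 16.8. The lower genes were Ccnd1, the cyclin of early G1 and not a brake, at 63.4 against 138, and Trp53. Trp53 had a log2 ratio of -1.17, and of -0.87 with at least 1% collagen and Dcn UMIs per cell. Of 30 replication and mitosis genes 5 were higher and 6 lower, with a median of -0.54, although both groups were limited on Top2a and Mki67. The balance moved with the limits: none was higher and 10 lower of 23 with cycling called by 8 genes, 14 were higher and 6 lower of 43 with at least 50 UMIs, and 4 and 12 of 30 with the ambient profile subtracted. The helicase subunit Mcm3 stood at 14.2 CPM against 60.2. The cyclin Ccnb2 went the other way, with a log2 ratio of 4.61 (3.77 to 5.75). Some members thus carried RNA of cell cycle genes outside the rule, and calling cycling by 8 genes left 310 members. Glycolysis genes (3 of 21 higher, 2 lower) and cholesterol synthesis genes (1 of 21 higher) had medians of 0.04 and 0.07, near that of all genes.

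Other leading ratios belonged to genes that were almost absent at day 1. Agtr2, an angiotensin receptor, had 206 UMIs in members and 1 in day 1 FAPs (log2 ratio 7.10, 5.19 to 13), and was seen in 34 of 431 members. Aoc3, an amine oxidase of the cell surface, stood at 65.8 CPM against 0.497 and was seen in 19.3% of members after thinning, 0.552% of day 1 FAPs and 0.169% of Lyz2-rich cells (unthinned 66.6%, 0.826% and 0.414%). The imprinted gene Mest stood at 70.5 CPM against 1.49, the matrix gene Smoc1 at 21.3 against 0.397, and the mitochondrial gene Ndufa4l2 at 227 against 6.06.

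**Figure D3:**
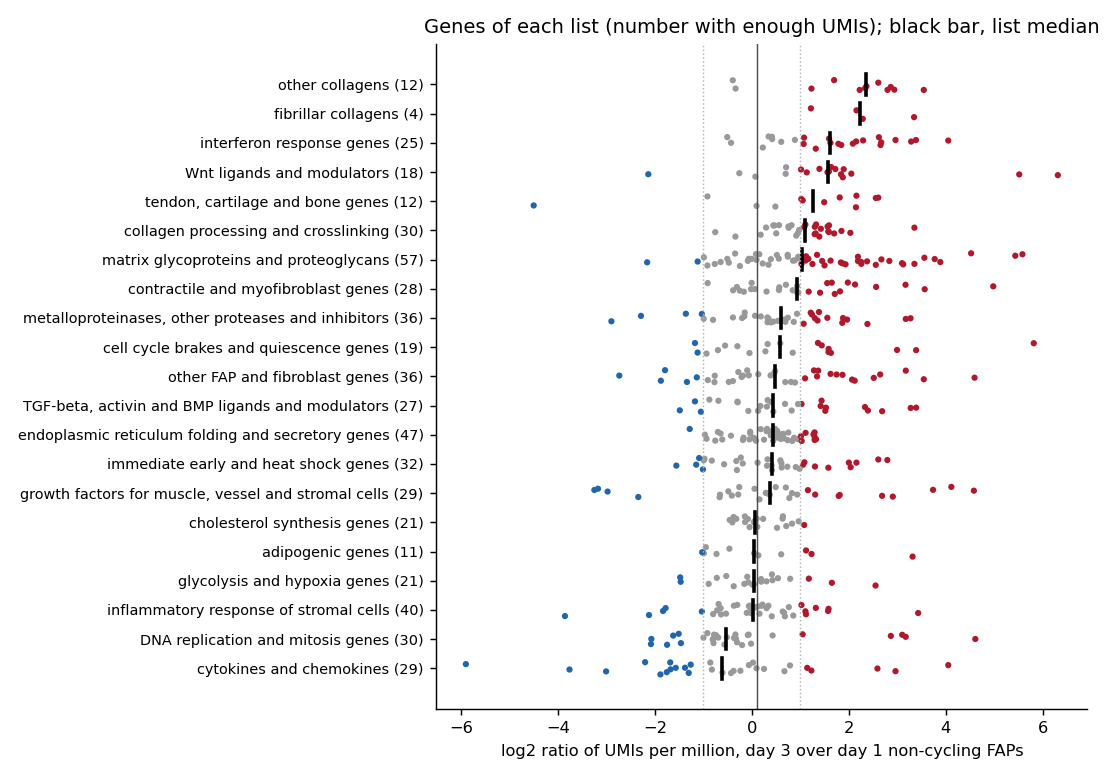
Log2 ratio of CPM, day 3 over day 1 non-cycling FAPs, with 1 point for each gene with enough UMIs, grouped by gene list; red and blue points are at least 2-fold higher or lower, black bars are list medians and the solid line is the median of all genes, 0.10. Collagens and interferon response genes lie to the right, with medians of 2.22, 2.35 and 1.62, and cytokines and chemokines to the left at -0.61.

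Non-cycling and cycling FAPs of day 3 came from 1 library and were separated by their UMIs of Top2a and Mki67, so cell cycle genes describe the split. Of 8251 genes 111 (1.35%) were at least 2-fold higher in the non-cycling members and 330 (4%) at least 2-fold lower. Collagen genes were near equal, with 0 of 4 fibrillar collagens past 2-fold in either direction (median 0.24). Of 55 replication and mitosis genes 52 were lower and none higher. The spindle gene Nusap1, for example, stood at 0.694 CPM in members and 55.9 in cycling FAPs.

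Genes higher in the non-cycling members included markers of a fibroblast state described in many tissues, Pi16 and Dpp4. Pi16, a peptidase inhibitor, stood at 129 CPM (122 to 136) against 11.2 (9.25 to 13.5), a log2 ratio of 3.52, and Dpp4, a surface peptidase, at 22.5 against 6.49. Pi16 was seen in 90 of 431 members, and the tenth with most held 95.9% of its UMIs. Against day 1 FAPs, where it stood at 327 CPM, Pi16 was lower (log2 ratio -1.34). In the list of other fibroblast genes 14 of 36 were higher than at day 1 and 5 lower, and 9 and 8 with at least 1% collagen and Dcn UMIs per cell. Apod, a lipid carrier, stood at 273 CPM against 41.6, but 1 cell held 1246 of its UMIs and the tenth of members with most held 82.5%. Complement C3 stood at 471 CPM against 173 and C4b at 59.0 against 17.4. Angptl7 had 464 UMIs in members and none in cycling FAPs, at least 151-fold higher, yet only 8 of 431 members had any and 1 cell had 221.

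Some lists of fibroblast, matrix and signalling genes held larger shares of higher genes than the 1.35% over all genes. In the list of other fibroblast genes 9 of 36 were higher, in matrix genes 7 of 58, in growth factors 7 of 26 and in inflammatory genes 11 of 41. None was lower in these 4 lists, against 4% over all genes. Clec3b (tetranectin) stood at 256 CPM against 73.6 and Gas6, a ligand of the TAM receptors, at 340 against 144. Cdkn1c stood at 52.1 against 19.5. Cxcl12 stood at 1164 CPM against 634 and Igf1 at 302 against 159, both under 2-fold, and Acta2 was lower at 161 against 254 (log2 ratio -0.66, -0.75 to -0.57).

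Macrophage RNA moved with this comparison: 8 of 14 macrophage markers tested were at least 2-fold lower in the non-cycling members. Spp1 (osteopontin) stood at 594 CPM in members and 1225 in cycling FAPs, with 12260 in Lyz2-rich cells, and its log2 ratio went from -1.05 to 0.08 without cells carrying macrophage UMIs. Without those cells 108 genes were higher and 244 lower of 6961. The log2 ratio was then 3.89 for Pi16 and 1.40 for C3.

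**Figure D4:**
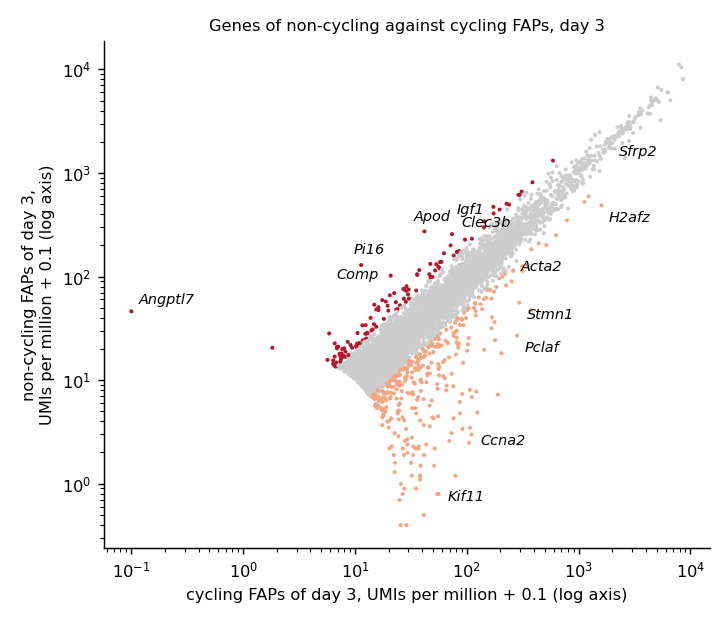
Level of each gene in cycling (horizontal) and non-cycling (vertical) FAPs of day 3, in CPM plus 0.1 on log axes; dark red genes are at least 2-fold higher and orange genes at least 2-fold lower in non-cycling FAPs. Pi16, at 129 against 11.2, lies well above the diagonal, the mitotic genes lie below it, and Sfrp2 lies near it at 2203 against 1968.

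Clustering divided the 431 members into 5 subclusters, which are described by their leading genes and were not tested, since the same genes made them. Subcluster 1 (130 cells) was led by Acta2, Ddah1 and Tpm2, and 3 of its 8 leading genes (Acta2, Tpm2 and Tagln) are contractile. Acta2 stood at 327 CPM in it and 88.5 in the other members, and Tpm2 at 261 against 90.5. Its replication and mitosis genes summed to 3404 CPM, against 3208 in subcluster 4 and 1755 to 2066 in the others. Subcluster 2 (130 cells) was led by Apod, Clu and Comp, with Comp, a cartilage matrix protein, at 251 CPM against 46.6. Subcluster 3 (83 cells) was led by Pi16 and Dpp4, with Pi16 at 730 CPM against 11.3. Subcluster 5 (27 cells) was led by Inhba, Ndufa4l2 and Bnip3, and its summed glycolysis and hypoxia genes came to 14313 CPM, against 4086 to 5462 in the others.

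Subcluster 4 (61 cells) was led by genes of macrophages, such as Adgre1 at 108 CPM against 1.37, and 59 of its cells carried macrophage UMIs. Its median depth was 34730 UMIs, against 19689 to 23912 in the others.

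Sfrp2 and Postn were present in every subcluster, at different levels. Sfrp2 ranged from 1238 CPM in subcluster 3 to 3230 in subcluster 2, and Postn from 1038 in subcluster 5 to 2357 in subcluster 1. Cxcl12 was highest in subcluster 2 at 2085 CPM, against 723 to 1099 elsewhere, as were Sfrp1 at 851 and Igf1 at 524. Contractile genes summed to 8992 CPM in subcluster 1 and 5108 in subcluster 3. At a finer resolution of 1.0 there were 8 subclusters, among them 16 cells, all from subcluster 2, led by Ifit3 (614 CPM against 25.7), Isg15 (1423 against 94.5) and Cxcl9 (590 against 44.7).

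**Figure D5:**
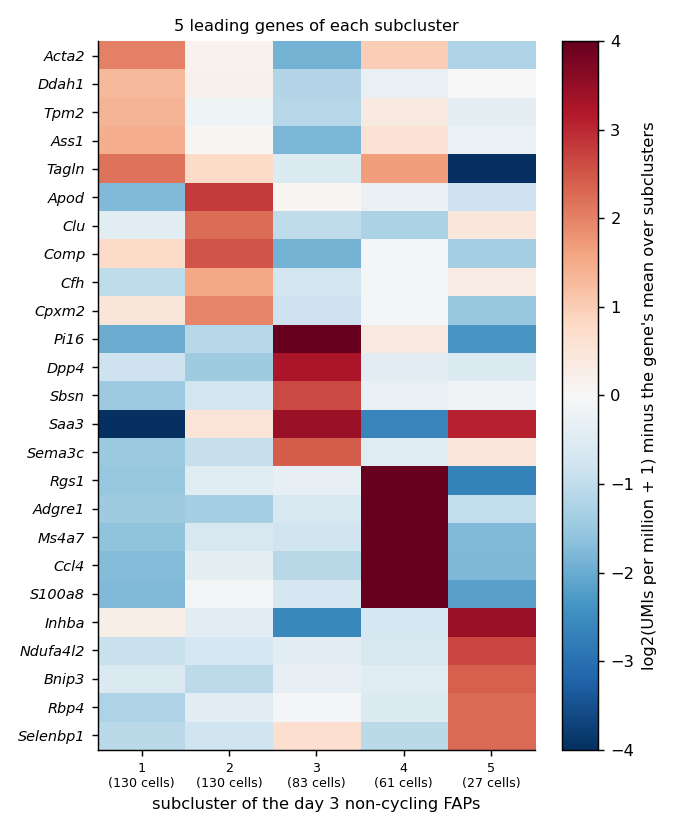
Level of the 5 leading genes of each subcluster of day 3 non-cycling FAPs, as log2(CPM + 1) minus the mean of the gene over the 5 subclusters, with red above and blue below that mean. Subclusters hold 130, 130, 83, 61 and 27 cells, and the genes leading subcluster 4 are those of macrophages.

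Day 3 FAPs held much of the library's RNA for some genes. The non-cycling members carried 12% of all UMIs of day 3 cells past the filters and cycling FAPs 11.7%. The members held 82.1% of Agtr2 UMIs, 78.4% of Apod, 69.4% of Clec3b, 60.1% of Prg4, 58.8% of Tnfaip6, 56.0% of Cxcl12, 51.4% of Il33 and 51.0% of Il6. Without the 1 cell with most Apod the share of that gene was 66.4%. Cycling FAPs held 6.77% of Agtr2 UMIs and 11.7% of Apod, but 27.9% of Prg4, 29.9% of Cxcl12 and 35.5% of Il6. For Igf1, which Lyz2-rich cells also expressed at 73.8 CPM, the share of the members was 35.3%, for Ccl2 17.2% and for Cxcl10 13.4%.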

How the data were processed

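Single cells of 2 libraries were measured with a droplet kit that counts UMIs. The authors deposited raw counts per gene and barcode, made with Cell Ranger and mapped to mm10 per the submitters' processing notes; these name version 5.0.0, while the matrix header names 4. Libraries held 74852240 (day 1) and 102565783 (day 3) UMIs. The 7367 and 6640 barcodes with most UMIs were taken as cells, then kept with at least 1000 UMIs, 200 genes and at most 7.5% mitochondrial UMIs. UMIs were summed per group and scaled to CPM. Intervals are exact (Poisson for CPM, Clopper-Pearson for shares, binomial for log2 ratios, 0.5 added to counts), at 95%, and cover counting error only. A gene was compared with at least 200 UMIs over both groups and called at 2-fold, with no test, as each day has 1 library. Subclusters came from 2000 variable genes, 15 principal components, 15 neighbours and Leiden resolution 0.5 (leidenalg 0.10.2). Doublets were kept: Scrublet (scanpy 1.11.5) called 2 and 0 cells by its own threshold and had not worked, so the 363 and 171 highest scores were left out as an alternative. Other alternatives changed the cell call, each limit, weighting, depth, gene filter, centring and ambient RNA. Scripts (Python 3.11.15, numpy 2.4.6, scipy 1.17.1) were tested on simulated data.

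The members and gene lists were chosen with earlier results of these data known. Genes were named by rule: the 6 markers; up to 5 genes of each list with the highest level, ratio or lowest ratio; the 15 highest and lowest ratios of each comparison; and the 8 leading genes of each subcluster. Other genes named were chosen after their values were seen. The result for 1 listed gene is not reported here.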

Additional observations from a re-analysis of the deposited data

How the results depend on the processing

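No paired analysis was possible because each day has 1 library. Without replicates no setting can say how values vary between mice. The share of members, 9.31%, became 10.3% with cells called at 10% of the 99th percentile of UMIs, 6.70% with 8 cycling genes and 7.93% without cells carrying macrophage UMIs, an alternative chosen after seeing the data. Against day 1, 415 genes were lower with at least 1% collagen and Dcn UMIs, 2037 were higher among genes with at least 50 UMIs, and 356 were higher and 341 lower with at least 1000. Of matrix genes 28 of 57 were higher with ratios centred on their median and 27 of 56 with the highest doublet scores left out, against 30 of 57. Against cycling FAPs, 298 were higher and 545 lower after thinning, 249 and 605 with at least 50 UMIs, 42 and 76 with at least 1000, and 181 higher with the ambient profile subtracted. Subclusters numbered 8 at resolution 1.0. The causes were not tested, beyond the number of genes admitted. Ratios reversed sign with at least 1% collagen for C4b (-0.051), Sox5 (-0.10) and Tnmd (-0.48), with 8 cycling genes for C1qc (-0.31), after thinning for Il34 (-0.23), and with the ambient profile subtracted for C1qa (-1.34) and Tnf (0.077). Of 2613 alternative values of 215 named ratios of at least 2-fold, 2606 had the same sign and 78, from 45 ratios, were under 2-fold. Many of these values could not reverse. Other gene limits leave a ratio unchanged, and centring only subtracts the median, 0.10 against day 1 and -0.042 against cycling FAPs. Subtraction gave no value for C1qb, Ccl24, Cd36, Il1a, Il1b, S100a8 and S100a9. The scale of the subtraction came from C1qa, C1qb and C1qc, which allowed an ambient share of 13.5% in members and 9.93% in day 1 FAPs. Without cells carrying macrophage UMIs they allowed 1.19% and 0.379%, so the scale rested largely on those cells.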
